A study of Mus musculus with 4 samples.

Results

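Cell cycle and DNA replication genes were compared between peritoneal exudate cells of Cebpe-deficient mice and of wild-type mice. The set holds 39 named genes: 6 cyclins and kinases of G1 phase, 14 genes of DNA replication and 19 genes expressed from late S phase to mitosis. A gene was taken as present on an array where the platform annotation gave a probe set that gene's symbol and no other. This found 34 of the 39 genes, on 43 probe sets, among 6137 genes named this way in the whole series. Of the 43 probe sets, 30 lay on 1 Affymetrix array type, here A, and 13 on the other, here B.

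The Cebpe-deficient mice lacked C/EBPε (genotype -/-), a transcription factor of late granulocyte and macrophage maturation. The wild-type mice (+/+) were of the same mixed background, 129/SvEv x NIH Black Swiss. Both groups were 6 to 8 weeks old, with 4 mice per genotype, and both had received 2 ml of 4% thioglycollate broth into the peritoneum. This sterile irritant recruits leukocytes, and lavage followed at 24 h. Stained cytospins of 100 to 200 cells held, per the labels, about 60% neutrophils, 30% monocytes and 7 to 10% lymphocytes in either genotype. The purpose stated in the labels was to find candidate targets of C/EBPε in myeloid cells. How cells of the 4 mice were combined is not described in the text used here. The title of the deficient sample on type B gives its genotype, while its RNA source does not name it.

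A cell enters the cycle when D-type cyclins with CDK4, and then cyclin E with CDK2, inactivate the retinoblastoma proteins and free E2F factors. These switch on the genes of DNA synthesis, such as the MCM helicase, the sliding clamp and the enzymes that make nucleotides. A later wave of genes, read through CCAAT and CHR elements, builds cyclin A, cyclin B, CDK1 and the spindle machinery. Mature neutrophils do not divide, whereas some macrophages of an inflamed peritoneal cavity and activated lymphocytes can.

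With 1 array per genotype and array type, no test could be made, and all differences below lack a replicate check. Signals are the deposited array intensities, which can be below 0. A floor was set at the median signal of each array type, 1036.5 on A and 690.2 on B. A gene above the floor in both genotypes has a log2 ratio of deficient over wild-type signal and is called measured. A gene above it in 1 genotype only has a bound against the floor, and a gene at or below it in both has no ratio. Repeat probe sets of 1 gene gave a measurement SD of a log2 ratio of 0.40 below 3 times the floor and 0.37 above (424 genes). This SD holds no spread between mice. No probe set was named Cebpe, so the deleted gene could not be used to check the labels. In these mixed exudates, fewer dividing cells and less RNA per dividing cell cannot be told apart.

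Signal was lower in Cebpe-deficient cells for all 7 measured mitotic genes and for 6 of 7 replication genes, while G1 genes were mixed, with 3 of 5 lower. Scaled to the bacterial controls, Aurka and Ube2c of the mitotic group were slightly higher. As reported, Cdk2, Ccnd3 and Mcm5 were higher. Of 19 measured members, 16 were below 0 (84.2%), against 49.1% of all 3132 measured genes. Their median log2 ratio was -0.78, and the quartiles were -1.10 and -0.29, beside a median of 0.01 over all measured genes. By 2-fold or more, 8 members were lower (42.1%), against 3.67% of all measured genes. The proliferation antigen gene Mki67, the G1/S cyclin gene Ccne1 and the helicase genes Mcm6 and Mcm7 were among these 8. Cdk2 was the 1 member higher by 2-fold or more, against 3.03% of all measured genes. By 2 measurement SD or more, 10 members were lower, against 7.28% of all measured genes. With a signal of 3 times the floor or more in either genotype, 13 of 14 members were lower (median -1.01). Of these, 8 were lower by 2-fold or more (57.1%), against 4.63% of all such genes. Among dimmer members, 3 of 5 were lower (median -0.04), 0 by 2-fold or more, against 1.61% of all such genes. Markers of several cell types were lower as well, as described further on. Medians were -0.62 for neutrophils, -0.54 for monocytes and macrophages, -0.56 for resident macrophages and -0.85 for mesothelial cells and fibroblasts. B cell markers (-0.11) and early granulocyte markers (-0.03) differed less.

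A further 7 members passed the floor in 1 genotype, and in all 7 this was the wild type. Over all genes that passed it in 1 genotype, 50.9% did so in wild-type cells. With these 7 at their bounds the members' median was -0.52. The log2 bounds ran from -1.13 for Stmn1 to -0.01 for Tk1. In wild-type cells Tk1 was hardly above the floor, at 1041 against 1036.5. Scaled to equal medians, by quantiles or to the bacterial controls, Tk1 had no bound.

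**Figure D1:**
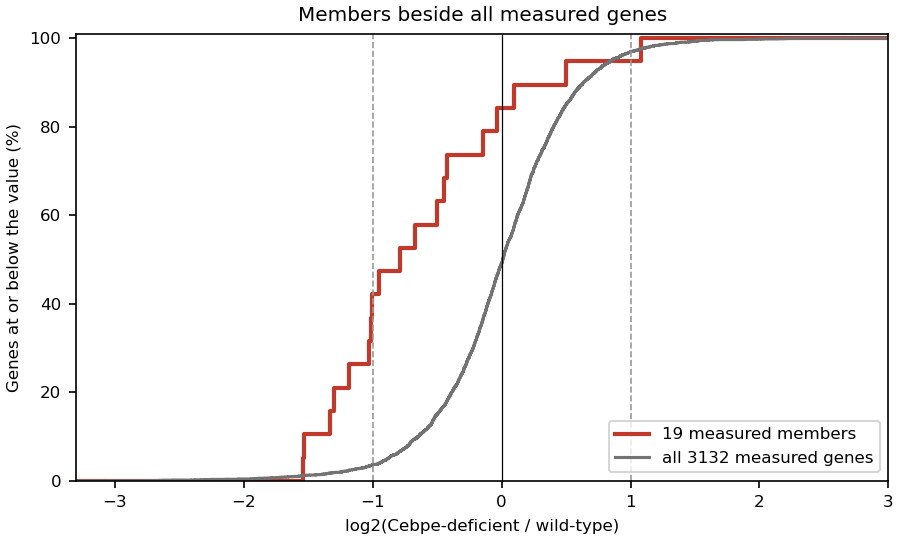
Cumulative share of genes (y axis, percent) at or below each log2 ratio of Cebpe-deficient over wild-type signal (x axis), for the 19 measured members (red) and all 3132 measured genes (grey). Dashed lines mark 2-fold. Of the 19 members 16 are below 0, and 1 lies past the upper line.

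The G1 genes divided into 3 lower and 2 higher (median -0.68, 5 of 6 measured), a share near that of all measured genes. Their median was -0.0895 without probe sets of the family type, whose probes may match related transcripts, and 0.50 on array type A alone. Ccne1, which encodes the cyclin that opens S phase with CDK2, read 1494 in deficient cells and 4344 in wild-type cells, a log2 ratio of -1.54. It stood at rank 36 from the lowest among the 3132 measured genes and was the lowest member. Ccnd1, the D-type cyclin induced by growth factors, read 3760 in deficient and 7534 in wild-type cells (-1.01, by a probe set of the family type). Cdk4, the kinase that D-type cyclins activate, read 6317 in deficient and 10081 in wild-type cells, 1.60-fold lower.

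Cdk2 and Ccnd3 went the other way. Cdk2, the partner kinase of cyclins E and A, read 2839 in deficient cells and 1341 in wild-type cells, 2.12-fold higher. Its wild-type value was close to the floor of 1036.5. Ccnd3, another D-type cyclin and one common in blood cells, read 16057 and 2703 on its probe sets in deficient cells, against 11380 and 1605 in wild-type cells. The log2 ratios were 0.50 and 0.75, so both of its probe sets were higher, by less than 2-fold. The dimmer of these is of the family type. Ccnd2, the remaining D-type cyclin, was below the floor in both genotypes (-1755 in deficient and 630 in wild-type cells). Ccne1 and Cdk2, which encode a cyclin and its kinase, thus had ratios of opposite sign. The Cdk2 window, shown because Cdk2 was the only member higher by 2-fold or more, is from RefSeq on GRCm38.p6. It runs 5′ to 3′ on the gene's own strand from 250 bases before to 50 after the transcript start. Capitals mark matches to E2F-type, CHR-type and CCAAT letters on either strand, as listed with the promoter counts further on.
Cdk2, chr10:128705002-128705301, minus strand: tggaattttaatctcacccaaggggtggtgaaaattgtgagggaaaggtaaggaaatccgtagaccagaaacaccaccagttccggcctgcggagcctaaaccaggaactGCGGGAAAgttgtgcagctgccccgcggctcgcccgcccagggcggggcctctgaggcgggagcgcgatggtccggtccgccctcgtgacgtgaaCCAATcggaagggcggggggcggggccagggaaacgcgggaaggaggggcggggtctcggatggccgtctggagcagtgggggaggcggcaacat

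**Figure D2:**
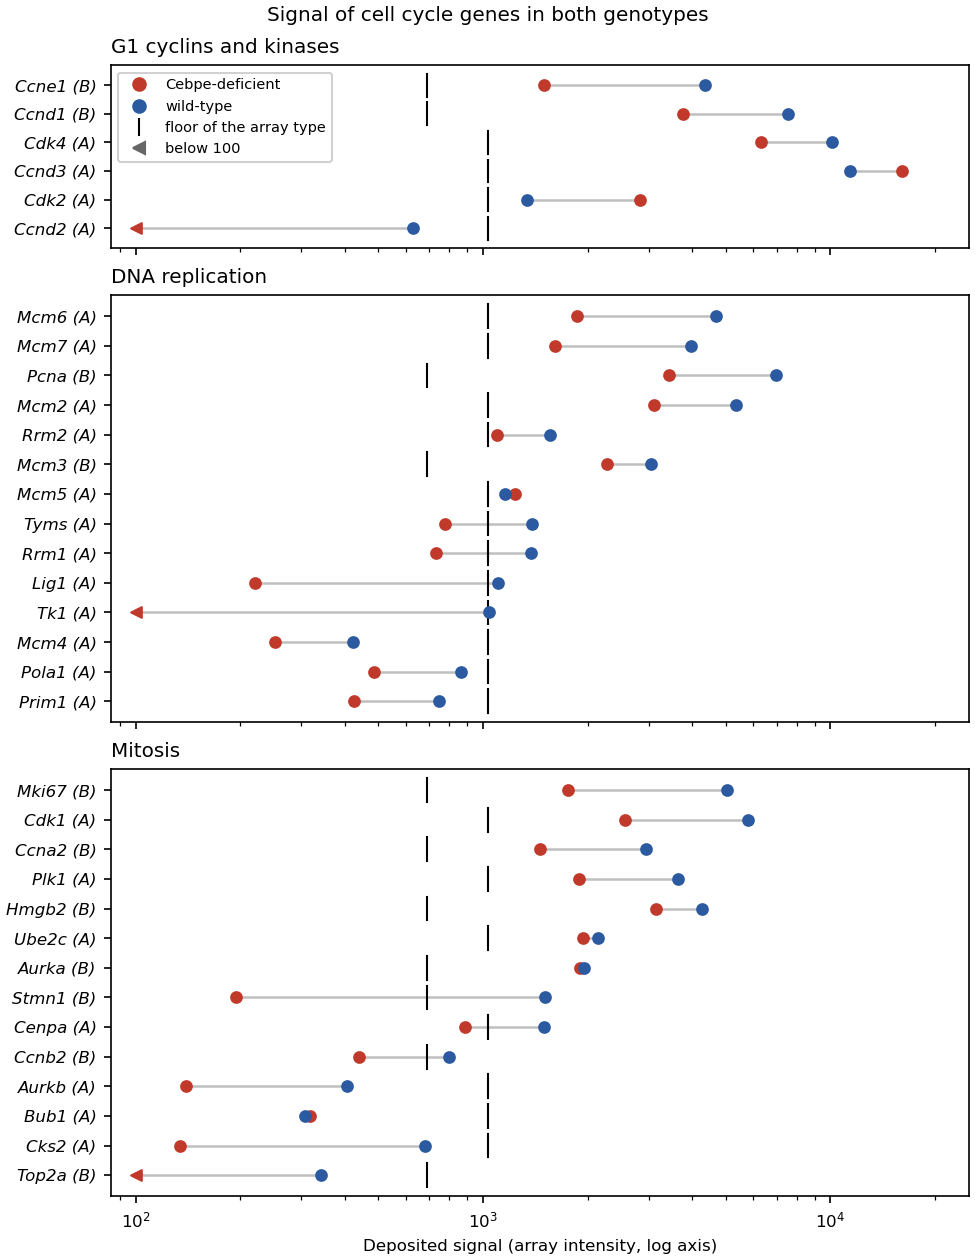
Deposited signal (x axis, array intensity, log scale) of the 34 members found on the arrays in Cebpe-deficient (red) and wild-type cells (blue), 1 array each, by phase, with the array type in brackets and the floor as a black tick. Triangles stand for values below 100. For Ccne1, Mcm6, Mcm7, Mki67 and Cdk1 both points lie right of the floor with the deficient one to the left, and for Cdk2 and Ccnd3 the order is turned.

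Of 14 replication genes 7 were measured, and 6 of the 7 were below 0 (median -0.78). The MCM helicase is built from 6 related subunits, all of them on the arrays. Mcm6 read 1862 in deficient cells and 4689 in wild-type cells, 2.52-fold lower. Mcm7 read 1613 in deficient and 3960 in wild-type cells, 2.46-fold lower. Mcm2 read 3110 in deficient and 5354 in wild-type cells, 1.72-fold lower. Smaller differences were seen for Mcm3, with 2276 in deficient and 3048 in wild-type cells (-0.42). Mcm5 had 1239 in deficient and 1158 in wild-type cells (0.10), near the floor, and Mcm4 was below the floor with 252 in deficient and 423 in wild-type cells.

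The subunits of this 1 complex thus spanned 1.43 log2 units, from Mcm6 to Mcm5. The measurement SD of a difference between 2 ratios chosen beforehand is 0.56. Mcm6 and Mcm5 are the lowest and highest of 5 measured subunits, and this SD does not allow for that choice. For Mcm6, the value comes from a probe set of the family type. Its other probe set read -5964 in deficient and -4154 in wild-type cells and gave no ratio.

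Pcna, the sliding clamp of the replicative polymerases, read 3419 in deficient and 6953 in wild-type cells, 2.04-fold lower. With Ccnd1 and Ccna2 it was 1 of 3 members within 0.03 log2 units of the 2-fold line. The enzymes that supply deoxynucleotides were dim. Rrm1, the large subunit of ribonucleotide reductase, read 730 in deficient and 1372 in wild-type cells, at least 1.32-fold lower. Tyms, thymidylate synthase, read 776 in deficient and 1382 in wild-type cells, at least 1.33-fold lower. The second probe set of Tyms, on B, gave no ratio, with -102 in deficient and -211 in wild-type cells, both below the floor. Tk1, thymidine kinase of S phase, read -384 in deficient and 1041 in wild-type cells, where it was hardly above the floor.

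Rrm2, the small subunit of ribonucleotide reductase, had 4 probe sets. The 1 that was measured read 1098 in deficient and 1556 in wild-type cells (-0.50). Another read 264 in deficient and 2823 in wild-type cells, a log2 bound of -1.45, and the next read 611 in deficient and 1241 in wild-type cells (bound -0.26). The last, on B, was below the floor, with -271 in deficient and 209 in wild-type cells. At a lower floor, the 30th percentile, the probe set with 264 and 2823 was the one read, at -3.42. The measured and bounded ones were all lower in deficient cells, by unequal amounts. The measured one and the one with the bound of -1.45 are of the family type. Lig1, the ligase that joins Okazaki fragments, read 221 in deficient and 1104 in wild-type cells, just above the floor. Pola1 and Prim1, subunits of the polymerase that lays down primers, were below the floor with 484 and 424 in deficient cells, against 862 and 748 in wild-type cells.

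The promoter windows of both subunits with the lowest ratios are given here because they hold E2F-type letters, found in 8 of 16 replication windows. Pcna, 2.04-fold lower, holds none in its window, and Mcm5, with a ratio of 0.10, does. Source, strand and capitals are as for Cdk2, and Mcm7 is shown at 1 of its annotated starts, the 1 with the E2F-type letters.
Mcm6, chr1:128359656-128359955, minus strand: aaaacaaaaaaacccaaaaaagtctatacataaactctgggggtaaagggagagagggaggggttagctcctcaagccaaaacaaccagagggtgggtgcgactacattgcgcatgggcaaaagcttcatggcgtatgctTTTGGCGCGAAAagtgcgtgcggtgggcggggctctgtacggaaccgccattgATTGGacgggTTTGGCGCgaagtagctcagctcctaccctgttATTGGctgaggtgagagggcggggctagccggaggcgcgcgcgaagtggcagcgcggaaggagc
Mcm7, chr5:138171834-138172133, minus strand: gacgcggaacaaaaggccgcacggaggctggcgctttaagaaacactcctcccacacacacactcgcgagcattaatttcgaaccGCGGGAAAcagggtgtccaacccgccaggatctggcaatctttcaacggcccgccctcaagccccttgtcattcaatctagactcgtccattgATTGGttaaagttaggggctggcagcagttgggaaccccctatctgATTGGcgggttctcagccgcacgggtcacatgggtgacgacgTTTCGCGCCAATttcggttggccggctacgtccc

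All 7 measured genes of the mitotic group were below 0 (median -0.95). Mki67, whose protein coats mitotic chromosomes and is the usual marker of cycling cells, read 1751 in deficient cells and 5043 in wild-type cells, 2.89-fold lower. It stood at rank 38 from the lowest of the 3132 measured genes. Cdk1, the kinase that drives entry into mitosis, read 2554 in deficient and 5791 in wild-type cells, 2.27-fold lower. Its partner Ccna2, cyclin A2, read 1461 in deficient and 2936 in wild-type cells, 2.01-fold lower. Plk1, a kinase of centrosomes and the spindle, read 1888 in deficient and 3644 in wild-type cells, 1.93-fold lower by a probe set of the family type.

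The remaining measured genes of this group differed by less than 2-fold. Hmgb2, a chromatin protein abundant in dividing cells, read 3144 in deficient and 4277 in wild-type cells (-0.45). Ube2c, the ubiquitin-conjugating enzyme that works with the anaphase-promoting complex, read 1937 in deficient and 2144 in wild-type cells (-0.15). Aurka, Aurora kinase A, read 1904 in deficient and 1949 in wild-type cells (-0.04). Its second probe set stayed under the floor, with 752 in deficient and 796 in wild-type cells. The ratios of Ube2c and Aurka were within 1 measurement SD of 0.

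For 3 mitotic genes the deficient signal was under the floor, so each fold is a minimum set by the wild-type signal and gives no order among them. Stmn1, the microtubule-destabilising protein stathmin, read 194 in deficient and 1507 in wild-type cells, at least 2.19-fold lower. The probe set of Stmn1 is of the family type. Cenpa, the histone H3 variant of centromeres, read 889 in deficient and 1495 in wild-type cells, at least 1.44-fold lower. Ccnb2, cyclin B2, read 439 in deficient and 797 in wild-type cells, at least 1.16-fold lower.

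Mitotic genes below the floor in both genotypes were Aurkb, Bub1, Cks2 and Top2a, and no direction was read from them. Aurkb, the kinase of the chromosomal passenger complex, read 140 in deficient and 405 in wild-type cells. Cks2, a subunit that binds CDKs, read 134 in deficient and 679 in wild-type cells. Bub1, a spindle checkpoint kinase, read 317 and 280 on its probe sets in deficient cells, against 307 and 287 in wild-type cells. Top2a, the topoisomerase that untangles sister chromatids, read -794 and -1034 in deficient cells, against 342 and -284 in wild-type cells. Birc5, Bub1b, Ccnb1, Cdc20 and Kif11 had no probe set named for them alone and were not analysed here.

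Promoter windows of the leading mitotic genes show the CHR-type and CCAAT letters in capitals, and the window of Cdk1 also an E2F-type match.
Cdk1, chr10:69352863-69353162, minus strand: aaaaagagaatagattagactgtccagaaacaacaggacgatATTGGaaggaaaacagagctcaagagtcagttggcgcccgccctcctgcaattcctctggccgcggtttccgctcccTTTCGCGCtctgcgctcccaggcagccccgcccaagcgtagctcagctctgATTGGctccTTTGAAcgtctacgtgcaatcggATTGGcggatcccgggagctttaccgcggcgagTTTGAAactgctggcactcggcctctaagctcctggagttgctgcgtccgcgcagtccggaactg
Mki67, chr7:135716330-135716629, minus strand: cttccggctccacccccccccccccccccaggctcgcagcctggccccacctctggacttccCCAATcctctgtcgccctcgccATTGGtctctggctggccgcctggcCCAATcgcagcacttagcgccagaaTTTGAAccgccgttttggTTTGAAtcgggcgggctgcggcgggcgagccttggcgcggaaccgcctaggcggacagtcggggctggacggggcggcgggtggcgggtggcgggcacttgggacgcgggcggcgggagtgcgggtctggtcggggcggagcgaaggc
Plk1, chr7:122159185-122159484, plus strand: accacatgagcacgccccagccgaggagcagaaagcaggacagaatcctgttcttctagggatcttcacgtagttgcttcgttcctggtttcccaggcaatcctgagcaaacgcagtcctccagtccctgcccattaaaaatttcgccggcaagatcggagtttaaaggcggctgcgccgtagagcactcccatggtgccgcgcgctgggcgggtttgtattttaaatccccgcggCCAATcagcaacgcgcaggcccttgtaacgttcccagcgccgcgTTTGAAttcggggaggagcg

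**Figure D3:**
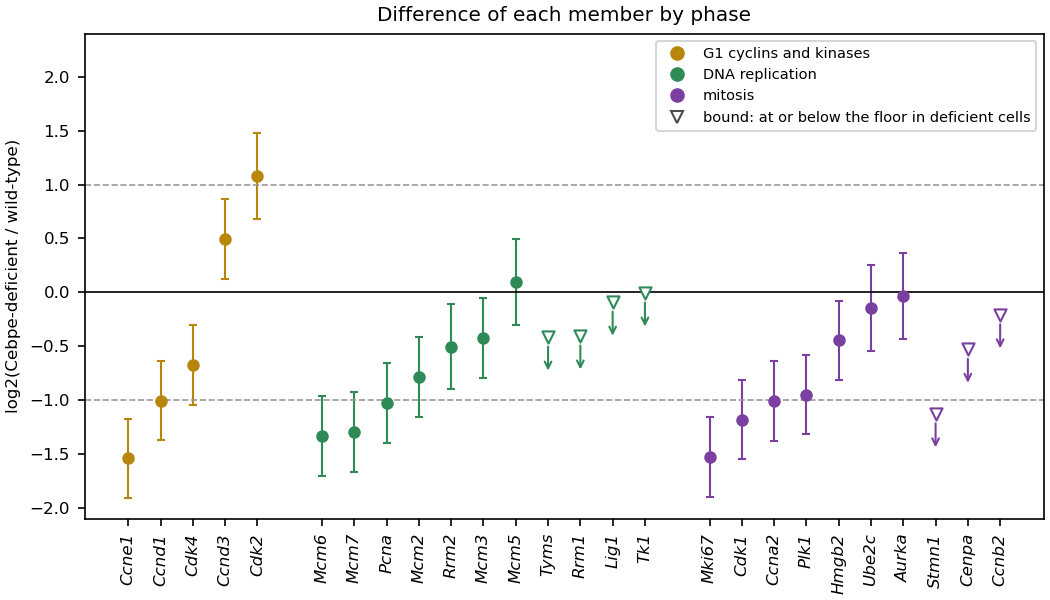
Log2 ratio of Cebpe-deficient over wild-type signal (y axis) for the 26 members with a ratio or a bound (x axis), coloured by phase. Filled points are ratios with the measurement SD from repeat probe sets as bars, open triangles with arrows are bounds, and dashed lines mark 2-fold. Cdk2, Ccnd3 and Mcm5 are the points above 0.

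The table used gave promoter windows for 33 of the 39 members, 37 windows in all because some genes have several starts. Windows were searched on both strands for E2F-type letters (TTTCGCGC, TTTGGCGC, TTCCCGCC or TTTCCCGC, which can overlap each other), the CHR-type letters TTTGAA, the CCAAT box CCAAT, and C/EBP-type letters (TTGCGCAA or TTGCNNAA, the first lying within the second). E2F-type letters were in 8 of 16 replication windows, 1 of 16 mitotic windows (Cdk1) and 1 of 5 G1 windows (Cdk2). They were in 3.49% of all 32851 promoter windows and in 5.65% of those of genes named on the arrays. The replication genes that held them were Lig1, Mcm3, Mcm5, Mcm6, Mcm7, Pola1, Prim1 and Rrm1. CHR-type letters were in 12 of 16 mitotic windows and 1 of 16 replication windows (Mcm2), against 17.9% of all windows and 12.9% of those of genes on the arrays. CCAAT was in 15 of 16 mitotic and 11 of 16 replication windows, against 37.4% of all windows.

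C/EBP-type letters, the kind of sequence the C/EBP family binds, were in 2 of 37 member windows (5.41%), those of Mcm3 and Pcna, against 10.8% of all windows. A match is a run of letters and no measured site, and its absence covers only these letters in this window. Ratios of members with and without the E2F-type or CHR-type letters overlapped. The 6 measured members with E2F-type letters had a median of -0.80 and the 11 without had -0.68. The 7 measured members with CHR-type letters had a median of -0.78 and the 10 without had -0.59. Cdk2 and Mcm5, which were higher, hold E2F-type letters, as do Mcm6 and Mcm7, which were lower.

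**Figure D4:**
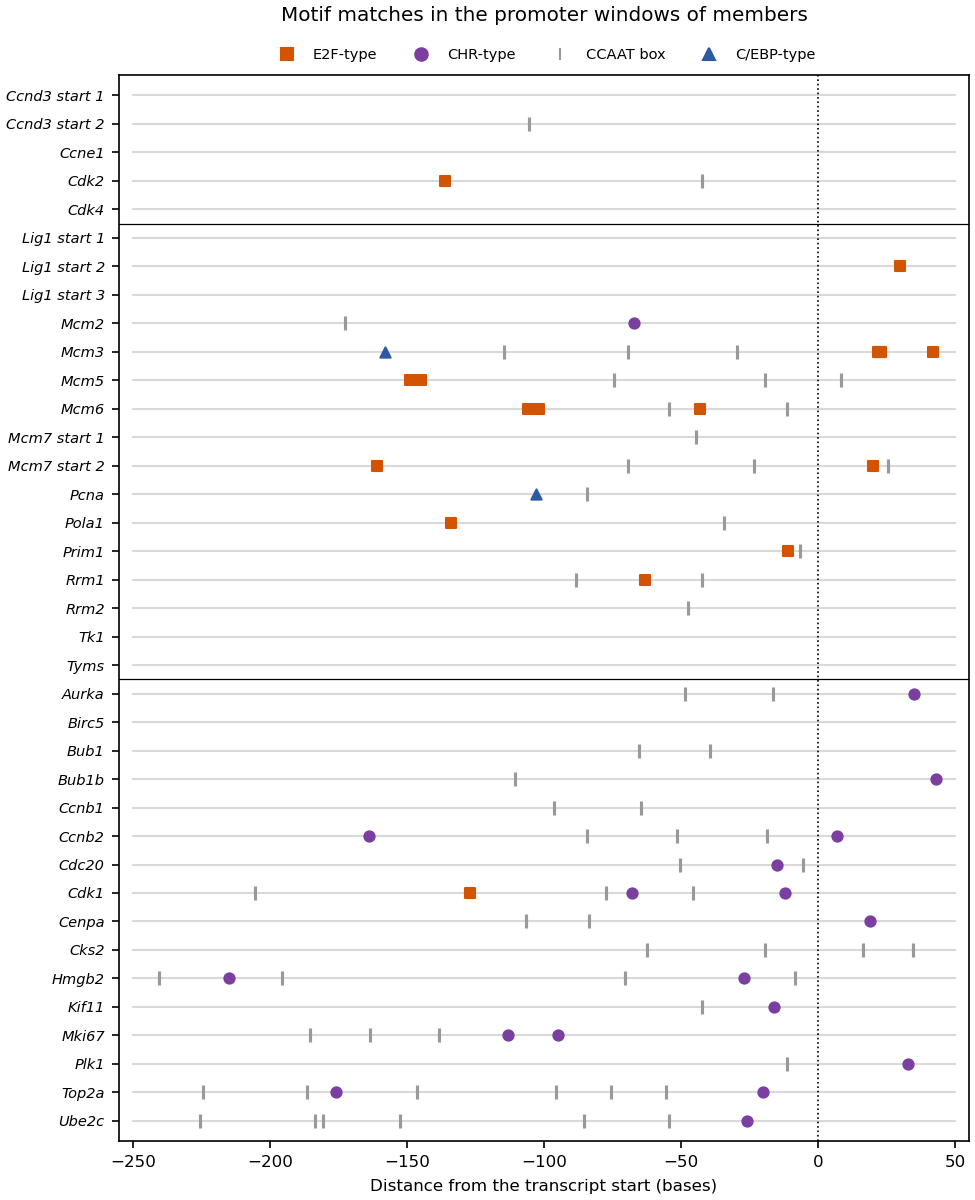
Matches to E2F-type (squares), CHR-type (circles), CCAAT (ticks) and C/EBP-type letters (triangles) in the 37 promoter windows (y axis, 1 line per start) by distance from the transcript start in bases (x axis), with lines between the G1, replication and mitotic groups. E2F-type squares lie in 8 of 16 replication windows, and CHR-type circles in 12 of 16 mitotic windows.

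Other cell cycle genes, taken as lists from general knowledge, also had medians below 0. Of all measured genes, 49.1% were lower, and by 2-fold or more 3.67% were lower and 3.03% higher. Of 13 measured further replication genes, 10 were lower and 3 higher (median -0.26), with 0 lower and 1 higher by 2-fold or more. The 1 was Orc2, a subunit of the origin recognition complex, with 2739 in deficient and 1203 in wild-type cells (1.19). Wild-type cells alone were above the floor for Rpa2, of the single-strand binding complex, with 709 in deficient and 2600 in wild-type cells (bound -1.33), and for Dnmt1, the maintenance DNA methyltransferase, with 435 in deficient and 1457 in wild-type cells (bound -1.08).

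Of 23 measured further mitotic genes, 16 were lower and 7 higher (median -0.23). The lower ones made up 69.6%, against 49.1% of all measured genes. By 2-fold or more 3 were lower (13.0%), against 3.67% of all measured genes. Tubb5, a beta-tubulin, read 8977 in deficient and 19648 in wild-type cells (-1.13). Hmgn2, a nucleosome-binding protein, read 8671 in deficient and 18071 in wild-type cells (-1.06). Tubb5 and Hmgn2 were read by probe sets of the family type. Ranbp1, a cofactor of the GTPase Ran, read 3046 in deficient and 6195 in wild-type cells (-1.03). Opposite to these, Lmnb2, lamin B2, read 7055 in deficient and 2471 in wild-type cells (1.51), and Kif20a, a kinesin of cytokinesis, read 3100 in deficient and 155 in wild-type cells, a bound of 2.17. Kif20a thus differed in sign from all measured and bounded mitotic members.

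Regulators of G1/S and inhibitors of the cycle had no measured gene past 2-fold. Of 6 measured G1/S regulators 4 were lower (66.7%, against 49.1% of all measured genes, median -0.30). E2f1, a factor that drives replication genes, read 3045 in deficient and 5079 in wild-type cells (-0.74). Rb1, the retinoblastoma gene that restrains it, read 3178 in deficient and 2085 in wild-type cells (0.61). Both were picked after their values were seen. The other measured regulators were Ccng1 (-0.56), Skp1 (-0.45), Tfdp1 (-0.16) and Ccnf (0.10). Myb, a factor of blood progenitors, read 1602 in deficient and -76 in wild-type cells, a bound of 1.21. Of 7 measured inhibitor genes 5 were lower (71.4%, median -0.25).

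Markers of the cell types in the exudate also differed. Beside the counts below, 49.1% of all measured genes were lower, and 3.67% were lower by 2-fold or more. All 9 measured neutrophil markers were lower (median -0.62), with summed signals of 105238 in deficient and 136417 in wild-type cells on A, and of 98446 in deficient and 129516 in wild-type cells on B. By 2-fold or more 4 were lower: Il1r2 (-2.40), Ngp (-1.57), Ly6g (-1.44) and Csf3r (-1.31), and Cxcr2 had a bound of -1.03. The other measured ones were Mmp9 (-0.62), Lcn2 (-0.52), S100a9 (-0.24), Itgb2 (-0.15) and S100a8 (-0.08), and Ltf had a bound of -0.07. Sums here and for the other cell types include markers with a bound. Camp did not pass the floor in either genotype. Of 12 measured monocyte and macrophage markers 8 were lower (median -0.54), with sums of 130772 in deficient and 136054 in wild-type cells on A. On B these sums were 257164 in deficient and 309476 in wild-type cells. Mrc1 (-2.30) and Cd14 (-1.03) were lower by 2-fold or more, and Ccr2 (0.97) was the highest of the list. Resident macrophage markers summed to 48264 in deficient and 44696 in wild-type cells on A, and on B to 17602 in deficient and 33992 in wild-type cells (4 of 6 lower, median -0.56). Serpinb2 (-1.68) was the 1 of these past 2-fold.

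The lists of lymphocytes and other cells were smaller or dimmer. Of 5 measured B cell markers 3 were lower (median -0.11), with sums of 39643 in deficient and 46026 in wild-type cells on A. On B they were 10142 in deficient and 12336 in wild-type cells, with Jchain at or below the floor in both. Of 9 T and NK cell markers on the arrays, 6 were at or below the floor in both genotypes, namely Cd3d, Cd3g, Cd4, Cd8a, Klrb1c and Thy1. Gzma was lower (-0.66), Cd3e had a bound of -0.88 and Cd2 a bound of 0.11. Of 4 measured early granulocyte markers, of cells that still divide in marrow, Kit (-0.58) and Cd34 (-0.16) were lower, and Elane (0.11) and Mpo (0.36) higher (median -0.03). Their sums on B were 4371 in deficient and 3961 in wild-type cells, including Flt3, with 993 in deficient and 252 in wild-type cells. Ctsg and Prtn3 were at or below the floor in both. Of 4 measured mesothelial and fibroblast markers all were lower (median -0.85), Col3a1 (-1.70) and Sparc (-1.51) by 2-fold or more. Their sums on B were 4634 in deficient and 11732 in wild-type cells, with Col1a2, Krt18, Krt19, Msln and Upk3b at or below the floor in both. Erythroid markers on B summed to 66971 in deficient and 103112 in wild-type cells, with Epor at or below the floor in both. Hbb-b2 (-1.62) was lower, Alas2 had a bound of -2.79, and Hba-a1 had a ratio of 0.04. Of 9 eosinophil and mast cell markers, 5 were at or below the floor in both genotypes. Ccr3 was 3.79-fold lower, with 936 in deficient and 3539 in wild-type cells, and Mcpt4 was higher (0.65). Cpa3 had a bound of 0.61 and Ms4a2 one of -0.36. The part of these differences in the lower cell cycle signal was not tested.

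The members' median lay between -0.80 and -0.72 under every scaling but 1, that to the bacterial hybridisation controls. Scaled to the bacterial hybridisation controls, the median of all measured genes was 0.24 in place of 0.01, and the members' median was -0.58 in place of -0.78. Relative to all genes the members then stood at -0.82, against -0.79 before. By that scaling 14 members were lower and 5 higher, beside 916 lower and 2203 higher of all measured genes. By 2-fold or more 4 members were lower and 1 higher, beside 68 lower (2.18%) and 210 higher of all measured genes. Over the alternatives that gave it a ratio, Ccne1 lay between -1.71 and -1.19, Mki67 between -1.70 and -1.18, and Mcm6 between -1.34 and -1.13. Pcna lay between -1.20 and -0.68, Ccnd1 between -1.18 and -0.65 and Ccna2 between -1.18 and -0.66, so these 3 crossed the 2-fold line. With the floor at the 70th percentile, Ccne1, Mki67, Mcm6, Mcm7, Cdk1, Cdk2 and Ccna2 were among the members left without a ratio. Aurka and Ube2c took either sign (-0.21 to 0.31 and -0.15 to 0.06). The G1 median depended most on which genes were read. On array type A alone, with Ccnd3, Cdk2 and Cdk4, it was 0.50, and on type B alone, with Ccne1 and Ccnd1, it was -1.27.

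**Figure D5:**
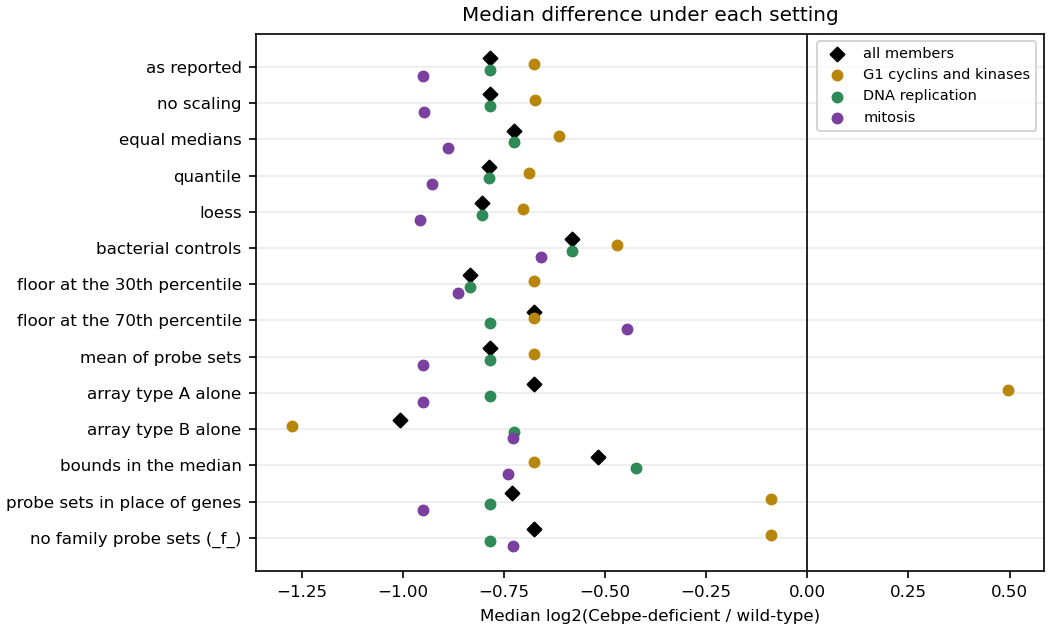
Median log2 ratio of Cebpe-deficient over wild-type signal (x axis) of all members (diamonds) and of each phase (circles) as reported and under each processing alternative (y axis). The median of all members lies below 0 in every line, and that of the G1 genes is above 0 on array type A alone, at 0.50.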

How the data were processed

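The authors deposited 1 value per probe set, an array intensity on a linear scale, for total RNA on 4 arrays (1 per genotype on each of 2 types). From the values, 20.6% to 29.3% are below 0. Software, background correction and scaling: not given in the sources used here. A probe set was named where the platform annotation held exactly 1 symbol. Sample titles gave the groups, and 0 value columns were left unused.

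Arrays of a type were scaled to equal trimmed means of non-control probe sets, without the 2% at either end (factors 0.999 to 1.001). The median of both arrays served as floor. Above it on both, a probe set gave a log2 ratio of deficient over wild-type; above it on 1, a bound against the floor. For genes with several probe sets, the measured one brightest relative to its floor was used. Differences of 2-fold or more were counted. Measurement SD came from repeat probe sets of a gene. The design allows no test, and the number of arrays limits the precision. Spearman rho between genotypes was 0.929 on A and 0.921 on B.

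The members, lists and markers were chosen with earlier results of these data known. The naming rule took every member, and genes of the other cell cycle lists past 2-fold by a ratio or a bound. E2f1, Rb1, the other measured G1/S regulators and the markers given with their values were added after their values were seen. Alternatives were 5 other scalings, other floors, 3-fold, 1 array type, mean of probe sets, probe sets counted and bounds in the median. Leaving out family-type probe sets was added after seeing the data. Code was tested on simulated arrays. It ran in Python 3.11.15 with pandas 2.3.3, numpy 2.4.6, statsmodels 0.14.6, scipy 1.17.1 and matplotlib 3.10.9.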

Additional observations from a re-analysis of the deposited data

How the results depend on the processing

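No paired analysis was possible because each genotype had 1 array of each type and the labels number no replicates. The members' median of -0.78 was -0.58 by bacterial controls, -0.68 with the floor at the 70th percentile, -0.68 on type A, -1.01 on type B, -0.52 with bounds and -0.68 without family-type probe sets. Of 16 lower members, 6 of 7 measured were lower at the 70th percentile floor, 8 were on A and 8 on B. The count lower by 2-fold (8) was 4 by bacterial controls, 2 at the 70th percentile, 3 on A, 5 on B and 0 at 3-fold.

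For G1 genes the median of -0.68 was 0.50 on A, where Ccnd3, Cdk2 and Cdk4 lie, and -1.27 on B. It was -0.0895 over probe sets and -0.0895 without family-type ones. Of 3 lower G1 genes 1 was on A. Their count at 2-fold (2) was 1 by bacterial controls, 1 at the 70th percentile, 1 without family-type probe sets, 0 on A and 0 at 3-fold. For replication the median of -0.78 was -0.58 by bacterial controls and -0.42 with bounds. The lower count (6) was 10 of 11 at the 30th percentile, 3 of 3 at the 70th and 2 on B. At 2-fold (3) it was 1 at the 70th percentile, 1 on B and 0 at 3-fold. For mitosis the median of -0.95 was -0.66 by bacterial controls, -0.45 at the 70th percentile, -0.73 on B, -0.74 with bounds and -0.73 without family-type probe sets. The lower count (7) was 1 at the 70th percentile, 3 on A and 4 on B. At 2-fold (3) it was 1 by bacterial controls, 1 on A, 0 at the 70th percentile and 0 at 3-fold.

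The number of genes measured, by construction, set the counts at other floors and on single types. Bacterial scaling raised the members' ratios by a constant amount on each array type. On A, Cdk4 went from -0.675 to -0.471 and Mcm2 from -0.784 to -0.581. On B, Ccna2 went from -1.010 to -0.659 and Pcna from -1.027 to -0.676. The changed medians and counts under bacterial scaling follow from these shifts. Why the bacterial controls gave another scale was not tested. Among members whose value stayed of 1 kind, a ratio or a bound, 3 moved by more than 1 measurement SD, all at the 30th percentile floor: Rrm2 to -3.42, Lig1 to -2.11 and Tk1 to -2.02. Of the 43 member probe sets, 32 carried the letter suffix s, 9 the suffix f of the family type and 2 no letter. Leaving out every probe set with a letter suffix left no measured member. Whether probe sets with the suffix s match other transcripts was not tested. Signal near the floor limits the dim and bounded members.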
